A study of Homo sapiens with 8 samples.

Results

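The genes described here are the ligands, the coreceptor and the secreted antagonists of NODAL and Activin signaling: NODAL, GDF3, INHBA, TDGF1, LEFTY1, LEFTY2, CER1 and FST. They were chosen by name, as every probe whose gene symbol or alias in the platform annotation is one of these 8 genes (TDGF1 is annotated as CRIPTO), which gave 9 of the 24526 probes on the array. Of the 8 genes, 5 passed the filter on low signals (NODAL, GDF3, LEFTY1, LEFTY2 and FST) and stand among the 9269 genes tested. Human embryonic stem cells had been grown on Matrigel in N2B27 medium, and their RNA was hybridized to 8 Illumina human-8 arrays, 2 for each of 4 conditions that differed in added factors. The condition −bFGF had neither factor and served as the negative control, +bFGF had basic fibroblast growth factor (FGF2) at 24 ng/ml, +IL-11 had interleukin 11, a cytokine of the IL-6 family, at 10 ng/ml, and +IL-11+bFGF had both at these doses, all for 5 days. The labels name the cells as line H1 and the text of the study as line H9, both established lines, so that each condition is a model in a single line whose name is not settled. No source states whether paired arrays of a condition hold RNA of separate cultures, so that the p-values below reflect array-to-array spread that could be technical alone.

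NODAL, GDF3 and the Activins, which are dimers of inhibin beta subunits such as the product of INHBA, are ligands of the TGF beta family that bind type I and type II Activin receptors and lead to phosphorylation of SMAD2 and SMAD3. NODAL and GDF3 need a membrane-bound coreceptor of the EGF-CFC family, of which TDGF1 (CRIPTO) is a member, whereas the Activins do not. LEFTY1, LEFTY2 and CER1 are secreted antagonists of NODAL, LEFTY1 and LEFTY2 are themselves induced by the pathway they inhibit, and FST (follistatin) binds the Activins. The pathway is known in human embryonic stem cells for its part in keeping NANOG expressed, and in the embryo for mesendoderm formation.

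Promoter sequence is shown for NODAL, GDF3 and FST, the members that passed the filter and have an entry among the RefSeq promoters of build GRCh38.p14, since all 3 were lower on the arrays with bFGF. Of the 8 members, 6 matched an entry, all except LEFTY1 and LEFTY2. Each line gives the 250 bases before the annotated start, 5′ to 3′ on the strand of the gene. The window of NODAL is chr10:70441682-70441931 (minus strand), that of GDF3 is chr12:7695776-7696025 (minus strand) and that of FST is chr5:53480379-53480628 (plus strand). Capitals mark matches on either strand to TGTNNATT, a form of the site bound by FOXH1, the DNA-binding partner of SMAD2, or to CAGAC, a form of the SMAD binding element.
NODAL: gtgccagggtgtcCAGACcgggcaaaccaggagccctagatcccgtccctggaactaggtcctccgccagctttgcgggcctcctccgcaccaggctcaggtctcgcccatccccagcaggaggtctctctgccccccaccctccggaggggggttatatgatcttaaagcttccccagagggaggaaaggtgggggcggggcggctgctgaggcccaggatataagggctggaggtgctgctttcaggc
GDF3: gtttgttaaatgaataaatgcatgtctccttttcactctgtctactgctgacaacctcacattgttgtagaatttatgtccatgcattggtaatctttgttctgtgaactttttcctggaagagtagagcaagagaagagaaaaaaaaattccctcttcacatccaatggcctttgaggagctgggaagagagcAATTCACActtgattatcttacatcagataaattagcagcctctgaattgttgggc
FST: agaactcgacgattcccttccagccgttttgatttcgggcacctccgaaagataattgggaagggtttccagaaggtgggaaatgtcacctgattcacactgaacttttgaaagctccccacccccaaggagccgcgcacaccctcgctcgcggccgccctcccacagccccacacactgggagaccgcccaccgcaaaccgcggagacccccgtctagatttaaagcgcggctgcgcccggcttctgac
The NODAL window held 1 match to CAGAC, beginning at position -237 from the start, and the GDF3 window held 1 match to TGTNNATT, beginning at -56 and on the opposite strand. The FST window held 0 matches to either. Of the member windows not shown, that of CER1 held 2 matches to TGTNNATT and 1 to CAGAC, and those of INHBA and TDGF1 held 0. Among the 35116 promoter windows of the same length, 38% held CAGAC and 9.88% held TGTNNATT, and no match in the members overlapped the other motif. A match is a description of these letters and was not tested as a binding site.

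The arrays detected 44.8% to 48.0% of all probes each, at a detection p under 0.01 against the negative control beads. Of the undifferentiated cell markers POU5F1, NANOG, SOX2, LIN28A, DNMT3B, DPPA4, ZFP42 and TERT, 7 of 8 were detected on every array, and TERT on 0. Levels below are log2 intensities after background correction and quantile normalization, and are compared between arrays for 1 probe and never between probes.

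Among the ligands, NODAL was lower on every array with bFGF than on any array without it. Its log2 level was 8.94 and 9.25 on the −bFGF arrays, 8.88 and 8.93 on the +IL-11 arrays, 7.13 and 7.16 on the +bFGF arrays and 7.49 and 7.23 on the +IL-11+bFGF arrays. The arrays thus fell into a pair of high conditions and a pair of low conditions with no overlap, and the gap between them was wider than any gap between the 2 arrays of a condition, the widest of which was 0.31. Over the 4 arrays with bFGF against the 4 without, NODAL fell by 1.75 on the log2 scale (SE 0.11, 3.36-fold lower, adjusted p = 7.2e-06). These are RNA levels of whole cultures, in which fewer NODAL-expressing cells and less NODAL RNA per cell cannot be told apart.

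GDF3, a ligand that also uses the coreceptor and is found in pluripotent cells, moved the same way over a smaller range. Its log2 level was 8.73 and 9.06 without either factor, 8.79 and 9.03 with IL-11, 8.41 and 8.47 with bFGF and 8.48 and 8.35 with both. The 4 arrays with bFGF lay below the 4 without, with 8.48 as the highest of the first and 8.73 as the lowest of the second. The difference was -0.47 on the log2 scale (SE 0.10, 1.39-fold lower, adjusted p = 0.00764).

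INHBA, the Activin A subunit, was not well above background on any array. Its intensity before normalization ran from 65.3 to 84.4 and its detection p from 0.0906 to 0.66. Both extremes of the intensity were on arrays with IL-11 (84.4 on +IL-11 replicate 1 and 65.3 on +IL-11+bFGF replicate 2), and no order among the conditions can be read at this level. Other ligands and subunits of the family were mostly in the same state, with 4 of 10 tested (INHBE, GDF11, TGFB2 and TGFB3), while INHBB, GDF1 and TGFB1 were detected on 0 arrays.

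TDGF1, the coreceptor, is widely used as a marker of undifferentiated cells, yet its single probe was not detected on any array. Its intensity before normalization was 74.4 and 70.7 without either factor, 73.2 and 72.2 with IL-11, 84.8 and 84.1 with bFGF and 85.9 and 79.8 with both, with detection p from 0.0647 to 0.395. All 4 arrays with bFGF were above all 4 without, as for 14.7% of the genes tested, but every value was within the range of the negative controls. When the filter on low signals was dropped, the probe passed the threshold over 4 arrays against 4 (adjusted p = 0.0198) and between no pair of conditions (adjusted p = 0.105 for +bFGF against −bFGF). Both sides of that comparison are readings below detection, so it gives no level or change of TDGF1 RNA, and whether this probe reads the TDGF1 transcripts of these cells was not tested. CFC1, the other EGF-CFC coreceptor, was also detected on 0 arrays.

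**Figure D1:**
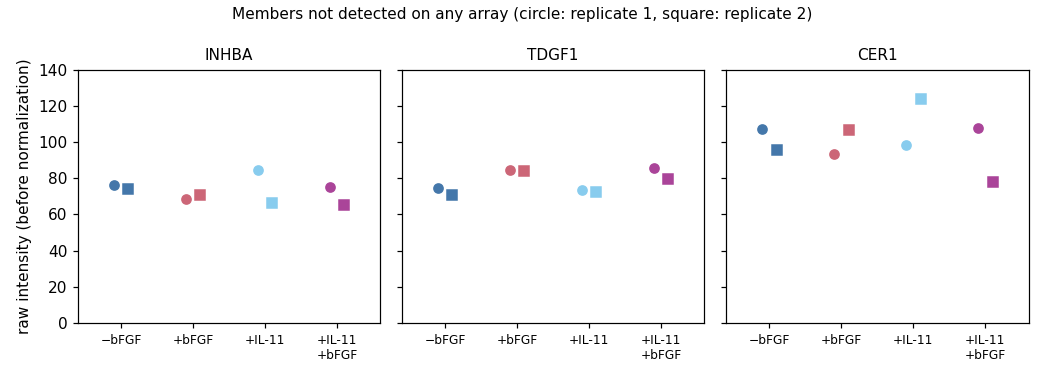
Intensity before normalization (vertical axis, from 0) of INHBA, TDGF1 and CER1 in the 4 conditions, with a circle for replicate 1 and a square for replicate 2. None of these 24 points passed detection at a p of 0.01, although TDGF1 reads 79.8 to 85.9 on the arrays with bFGF and 70.7 to 74.4 on those without.

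The antagonists LEFTY1 and LEFTY2 were both lower with bFGF, by less than NODAL and with wider gaps between arrays of a condition. LEFTY1 had a log2 level of 9.14 and 9.22 without either factor, 8.88 and 9.16 with IL-11, 8.06 and 8.50 with bFGF and 8.61 and 7.93 with both. Its 4 arrays with bFGF (at most 8.61) did not overlap the 4 without (at least 8.88), and the difference was -0.82 (SE 0.16, 1.77-fold lower, adjusted p = 0.00412). LEFTY2 had a log2 level of 8.70 and 8.44 without either factor, 8.70 and 8.98 with IL-11, 7.95 and 8.46 with bFGF and 8.23 and 7.56 with both. Here the groups overlapped by 1 pair of arrays, since +bFGF replicate 2 (8.46) was above −bFGF replicate 2 (8.44), and the difference was -0.65 (SE 0.17, 1.57-fold lower, adjusted p = 0.0171). The call for LEFTY2 was lost when −bFGF replicate 1 (adjusted p = 0.0532), +bFGF replicate 1 (0.0637) or +IL-11 replicate 2 (0.0663) was left out. LEFTY1 and LEFTY2 are neighbouring genes of near-identical sequence, and whether each probe also reads the other gene was not tested.

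The 2 LEFTY genes shared part of their spread between replicates. Replicate 2 minus replicate 1 on the log2 scale was 0.44 for LEFTY1 and 0.50 for LEFTY2 with bFGF, 0.28 for each gene with IL-11, and -0.68 and -0.66 with both factors. Only in −bFGF did they part, at 0.07 for LEFTY1 and -0.26 for LEFTY2. For NODAL these gaps were 0.02, 0.05, -0.26 and 0.31 in the same order of conditions, and for FST 0.16, -0.11, 0.43 and 0.08. The array on which the LEFTY genes were lowest, +IL-11+bFGF replicate 2, was not the lowest array of FST or NODAL. It was the lowest array of GDF3, whose gaps were 0.065, 0.244, -0.126 and 0.325 in that order.

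CER1 (Cerberus), which binds NODAL, was near background, with an intensity before normalization of 77.7 to 124 and a detection p of 0.0162 to 0.142. The highest array was +IL-11 replicate 2 and the lowest +IL-11+bFGF replicate 2, and the arrays with and without bFGF overlapped. Admitted at a detection p under 0.05, it differed by -0.23 on the log2 scale over 4 arrays against 4 (adjusted p = 0.498). No array detected CER1 at a p under 0.01, so this difference gives no level or change of its RNA.

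FST, the Activin antagonist, was lower with bFGF on both of its probes, which the platform annotation assigns to different FST transcripts. The brighter probe read 12.91 and 12.99 without either factor, 12.94 and 12.82 with IL-11, 11.23 and 11.39 with bFGF and 11.10 and 11.53 with both. The other probe read 9.30 and 9.18, 9.23 and 9.53, 7.41 and 7.61, and 7.46 and 7.84 in that order of conditions. On each probe the 4 arrays with bFGF lay more than 1 log2 unit below the 4 without. The brighter probe, which stands for the gene in the test, fell by 1.60 on the log2 scale (SE 0.09, 3.04-fold lower, adjusted p = 4.78e-06), and the other probe, in a fit of all kept probes, fell by 1.73 (SE 0.12, 3.32-fold lower, adjusted p = 1.6e-05).

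**Figure D2:**
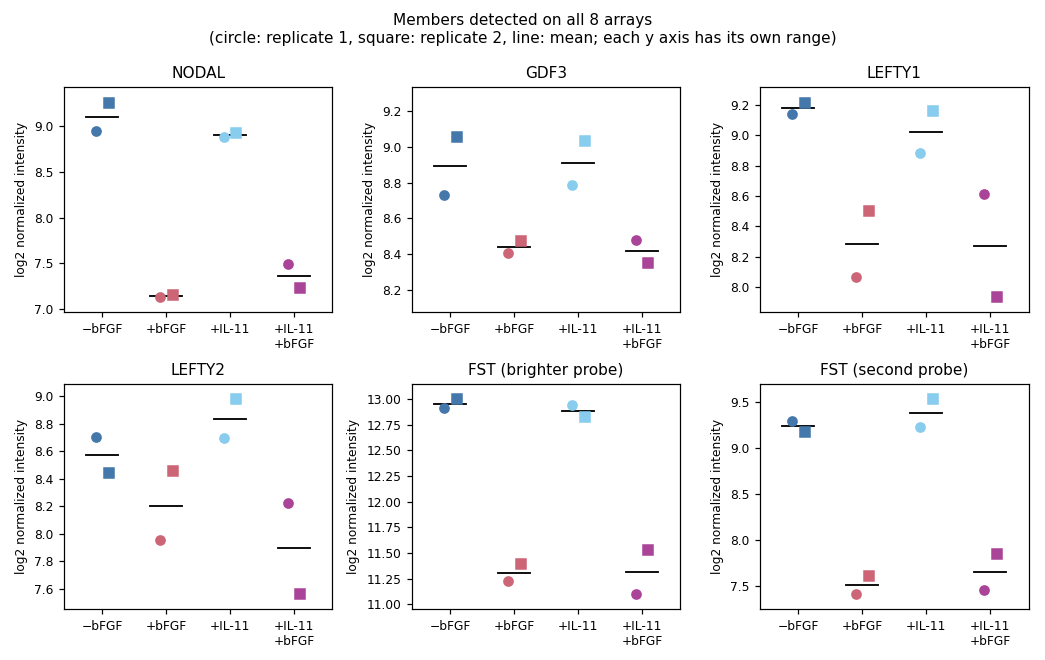
Log2 normalized intensity (vertical axes, each with its own range) of the 6 probes detected on all 8 arrays, with a circle for replicate 1, a square for replicate 2 and a line for the mean of each condition. NODAL and both FST probes separate into high arrays without bFGF and low arrays with it, whereas LEFTY2 overlaps at 8.44 and 8.46.

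Over 4 arrays with bFGF against 4 without, all 5 members that passed the filter were called lower, in a comparison that called 27.8% of all genes tested and 14.5% in the lower direction. The filter asked for detection on both arrays of at least 1 condition, and these 5 were detected on all 8 arrays, so none of them passed through its high group alone. In 4 of the 5 (all except LEFTY2) the arrays with bFGF were all below those without, as for 16.1% of all genes. The two-sided exact permutation test over the 8 arrays gave p = 0.0286 for NODAL, GDF3, LEFTY1 and FST, the smallest p that 4 against 4 allows, and p = 0.0571 for LEFTY2. These p-values are unadjusted, and the members were chosen with earlier results of these data known. Ranked by the size of the fall among 9269 genes, NODAL was in place 46, FST in place 54, LEFTY1 in place 271, LEFTY2 in place 419 and GDF3 in place 699.

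The effect of bFGF alone, asked by +bFGF against −bFGF, was called for NODAL, FST and LEFTY1, 3 of the 5, where 15.3% of all genes were called and 7.96% were called lower. NODAL fell by 1.95 on the log2 scale (SE 0.15) and FST by 1.65 (SE 0.13). LEFTY1 differed by -0.90 (SE 0.22, 1.86-fold lower, adjusted p = 0.0257), and this call was lost without −bFGF replicate 1 (adjusted p = 0.066), −bFGF replicate 2 (0.112) or +bFGF replicate 1 (0.159). GDF3 stood at -0.45 (SE 0.15, adjusted p = 0.0644) and did not pass, but it did without −bFGF replicate 1 (-0.62, adjusted p = 0.0346), and without −bFGF replicate 2 it stood at -0.29. LEFTY2 stood at -0.37 (SE 0.24, adjusted p = 0.329) and did not pass, with values from -0.12 without +bFGF replicate 1 to -0.62 without +bFGF replicate 2. In the overall order of condition means NODAL ran from 9.10 in −bFGF through 8.90 in +IL-11 and 7.36 in +IL-11+bFGF to 7.14 in +bFGF, and its neighbours on either side of the middle step did not differ beyond their spread.

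With IL-11 present on both sides (+IL-11+bFGF against +IL-11), bFGF again went with lower NODAL, at -1.54 (SE 0.15, 2.91-fold lower, adjusted p = 0.000315), and lower FST, at -1.56 (SE 0.13, 2.96-fold lower, adjusted p = 0.000141). LEFTY2 was the third member called, at -0.94 (SE 0.24, 1.92-fold lower, adjusted p = 0.032), so 3 of the 5 passed where 11.3% of all genes were called and 5.67% were called lower. The LEFTY2 call did not hold without +IL-11 replicate 1 (adjusted p = 0.0789), +IL-11 replicate 2 (0.187) or +IL-11+bFGF replicate 2 (0.166, at -0.61). LEFTY1 stood at -0.75 (SE 0.22, adjusted p = 0.0594), passed without +IL-11+bFGF replicate 1 (-1.09, adjusted p = 0.0218) and stood at -0.41 without +IL-11+bFGF replicate 2 (adjusted p = 0.293). GDF3 stood at -0.50 (SE 0.15, adjusted p = 0.0567) and passed without −bFGF replicate 1 (0.037) or replicate 2 (0.0372), arrays outside the comparison that add to the shared spread. That LEFTY1 passed without IL-11 and LEFTY2 with it does not show that they differ. The interaction, which is the bFGF effect with IL-11 minus that without, was 0.15 for LEFTY1 (95% interval -0.55 to 0.85), -0.58 for LEFTY2 (-1.32 to 0.17) and 0.41 for NODAL (-0.06 to 0.89), each with an adjusted p of 0.998. For the interaction limma called 0 of 9269 genes, with 176 at an unadjusted p under 0.05.

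**Figure D3:**
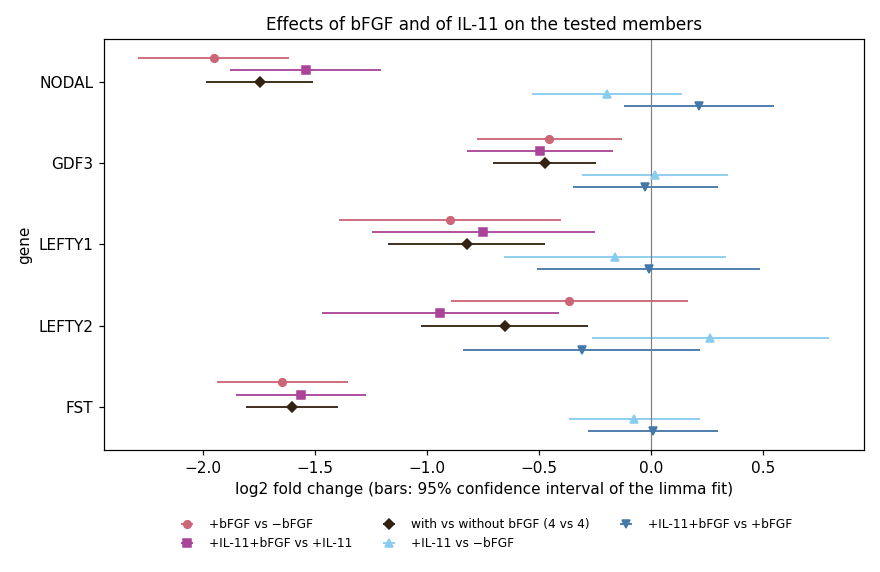
Log2 fold change (horizontal axis) of the 5 tested members in 5 comparisons, with points for the estimate and bars for the 95% confidence interval of the limma fit. The 3 comparisons for bFGF lie left of 0 for every member, with only the LEFTY2 interval of +bFGF against −bFGF crossing it, and the intervals of both comparisons for IL-11 span 0 for every member.

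IL-11 without bFGF moved none of the 5 tested members past the threshold. In +IL-11 against −bFGF, limma called 0 of 9269 genes, with 492 at an unadjusted p under 0.05, and the methods' t-test also called 0 after adjustment, with 377 before it. NODAL stood at -0.20 (95% interval -0.53 to 0.14), FST at -0.07 (-0.36 to 0.22) and LEFTY1 at -0.16 (-0.66 to 0.34). GDF3 stood at 0.02 (-0.31 to 0.34) and LEFTY2 at 0.27 (-0.26 to 0.80). The lower bounds for NODAL and FST lay far above their estimates for bFGF alone (-1.95 and -1.65), and those for LEFTY1, GDF3 and LEFTY2 lay closer to theirs (-0.90, -0.45 and -0.37). The second FST probe had the opposite sign, at 0.14 (-0.24 to 0.51).

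On top of bFGF, IL-11 moved none of the tested members past the threshold (+IL-11+bFGF against +bFGF, 0 of 9269 genes called by limma, with 161 at an unadjusted p under 0.05, and 0 by the methods' t-test, with 379 before adjustment). NODAL stood at 0.22 (95% interval -0.12 to 0.55), LEFTY2 at -0.31 (-0.84 to 0.22), and FST at 0.01 (-0.28 to 0.30). LEFTY1 at -0.01 (-0.51 to 0.49) and GDF3 at -0.02 (-0.35 to 0.30) were close to 0 with intervals that span it.

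Set directly against each other, +IL-11 was higher than +bFGF by 1.76 on the log2 scale for NODAL (SE 0.15, 3.38-fold higher, adjusted p = 0.000164) and by 1.57 for FST (SE 0.13, 2.97-fold higher, adjusted p = 0.000133). These were 2 of the 5 members, where 13.2% of all genes were called and 6.68% were called higher. LEFTY1 at 0.74 (adjusted p = 0.0565), LEFTY2 at 0.63 (adjusted p = 0.112) and GDF3 at 0.47 (adjusted p = 0.0614) did not pass. LEFTY1 passed when +IL-11+bFGF replicate 1 or replicate 2 was left out (adjusted p = 0.023 and 0.0221), GDF3 when −bFGF replicate 1 or replicate 2 was (0.0403 and 0.0407), and without +bFGF replicate 1 LEFTY2 stood at 0.38. This comparison shares its arrays with those above, which share arrays among themselves, so the sets of values are not separate evidence.

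**Figure D4:**
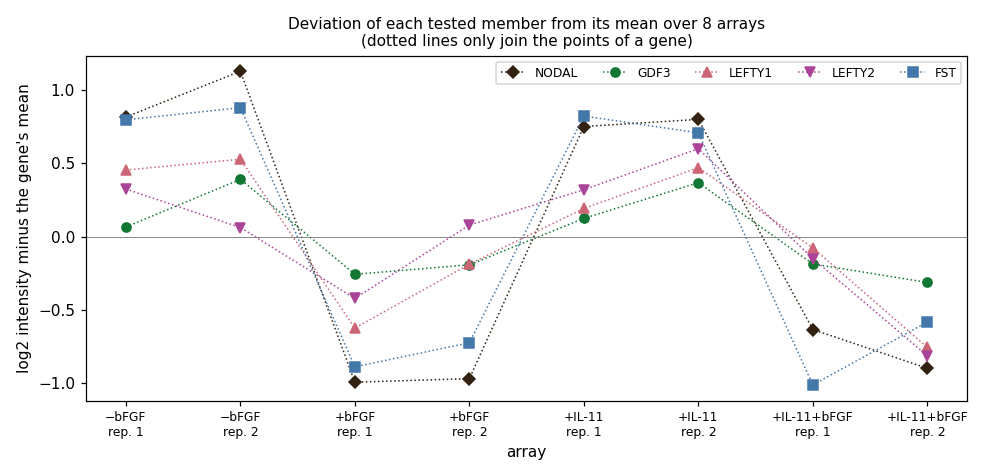
Log2 intensity of each tested member minus its own mean over the 8 arrays (vertical axis), by array, with dotted lines that only join the points of a gene. NODAL and FST cover the widest range, and LEFTY1 and LEFTY2 run close together on the last array, +IL-11+bFGF replicate 2.

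The genes most alike to each member were taken as the 3 outside the member list with the smallest root mean square difference over the 8 arrays, after centring each gene on its own mean. For NODAL these were ACTC1, an actin of cardiac muscle (0.16 on the log2 scale), SHISA2 (0.20) and GPER1 (0.21), and its nearest member was FST (0.22), against a spread of NODAL itself of 0.89. FST was followed most closely by APCDD1 (0.0437), an inhibitor of WNT signaling, then by CA4 (0.10) and FLRT3 (0.12), which is a membrane protein of the FLRT family. LEFTY1 was closest to HES6, IGSF9 and SPSB1 (0.12 to 0.14), and LEFTY2 to FOSB, an immediate early gene, SPSB1 and THBS1 (0.12 to 0.13), with each LEFTY gene the nearest member of the other (0.22). GDF3, whose own spread was 0.26, was closest to INA, ELF2 and SH3BP4 (0.07 each). The points share their arrays and normalization, and the measure describes these 8 arrays.

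Of 49 other genes of the pathway, 45 have a probe that is named here and 28 were tested. Over 4 arrays with bFGF against 4 without, 3 rose and 7 fell, where 13.4% of all genes were called higher and 14.5% lower, and their median was -0.15 on the log2 scale beside -0.01 over all genes tested. Of the 7, TGFB3 and MIXL1 passed the filter only through the conditions without bFGF, so that a difference was built into their selection, and they are described by their values alone. TGFB3, a ligand, read 6.93 to 7.61 on the 4 arrays without bFGF, all of which detected it, and 5.78 to 6.17 on those with it, where 1 of 4 arrays detected it. On neither +bFGF array was TGFB3 well above background. Taking the lowest detected signal of each array as its bound, its mean there was at least 1.66-fold lower than in −bFGF.

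Of the receptors, TGFBR2, the type II receptor of TGF beta, rose by 0.78 (SE 0.12, adjusted p = 0.00131), whereas ACVR1B, the type I receptor used by Activin and NODAL, was lower by a small amount, at -0.22 (SE 0.06, adjusted p = 0.0271). ACVR2A and ACVR2B, the type II receptors of Activin, stood at -0.13 (adjusted p = 0.262) and 0.02 (adjusted p = 0.908). Among extracellular regulators 2 of 5 fell, where 14.5% of all genes were called lower. BAMBI, a pseudoreceptor that dampens TGF beta family signaling, fell by 0.90 (SE 0.13, adjusted p = 0.000787) and BMP1, a secreted protease, by 0.52 (SE 0.13, adjusted p = 0.0158). FSTL3, a relative of follistatin, stood at -0.47 (adjusted p = 0.0526). FURIN, a protease that cleaves precursors of the family, stood at 0.29 (adjusted p = 0.0919).

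Of 9 SMADs and nuclear partners, 0 rose and 2 fell, where 13.4% of all genes were called higher and 14.5% lower. The 2 were SMAD3 at -0.29 (adjusted p = 0.0455) and SMAD4 at -0.24 (adjusted p = 0.0461), both near the threshold. SMAD2 at -0.16 (adjusted p = 0.351) and FOXH1 at -0.26 (adjusted p = 0.109) did not pass. Of 6 tested genes listed as SMAD2/3 targets, 2 were called higher, NANOG and CDKN1A, where 13.4% of all genes were. The 1 called lower was MIXL1, whose call is no support for a difference, given how it passed the filter. MIXL1, a mesendoderm homeobox gene, had log2 levels of 8.00 and 7.69 without either factor, 8.15 and 8.37 with IL-11, 5.64 and 7.03 with bFGF and 5.80 and 6.33 with both. It was detected on all 4 arrays without bFGF and on 2 of the 4 with it, 1 in each condition, and all 4 of the latter read lower than the former. NANOG, which the pathway is known to maintain, was higher with bFGF by 0.80 (SE 0.09, adjusted p = 0.000208), with 10.10 to 10.30 on the 4 arrays with it and 9.18 to 9.52 on those without. CDKN1A was higher by 0.77 (SE 0.08, adjusted p = 0.000163), and EOMES at -0.30 (adjusted p = 0.357) and PMEPA1 at -0.30 (adjusted p = 0.195) did not pass. SMAD7, SKIL and GSC were detected on 0 arrays.

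Markers of several cell types were compared over the same 4 arrays with bFGF and 4 without. In this comparison 13.4% of all genes tested were called higher and 14.5% lower. The summed linear level of the undifferentiated cell markers was 29600 to 31200 on the arrays without bFGF and 35600 to 40600 on those with it, where 4 of the 7 tested rose (POU5F1 by 1.24 on the log2 scale) and LIN28A was lower (-0.27). Of the 2 mesendoderm markers tested, EOMES was not called, and MIXL1 had the values and detection given above. The sum over the list was 927 to 1170 without bFGF and 445 to 935 with it, with GSC detected on 0 arrays. Of the 3 neuroectoderm markers tested, DACH1 was called lower, at -1.35, and NES was not called. PAX6 was detected on all 4 arrays without bFGF and on 2 of 4 with it. The list had a sum of 3370 to 4300 without bFGF and 2340 to 2860 with it, and SOX1 and ZIC1 were detected on 0 arrays. Endoderm markers were not called in any of 3 tested (sum 2000 to 4750 without and 857 to 3020 with bFGF), and GATA4 and GATA6 were detected on 0 arrays. Of the 3 trophectoderm markers tested, CDX2 was not called. GATA3 was detected on 3 of 4 arrays without bFGF and 0 of 4 with it, and KRT7 on 3 of 4 and 1 of 4. The list had a sum of 326 to 444 without bFGF and 211 to 349 with it, and CGA and CGB3 were detected on 0 arrays. Of the markers of fibroblast-like cells, 4 of 6 tested fell (COL1A1, COL1A2, COL3A1 and DCN) and THY1, which undifferentiated cells also express, rose, with a sum of 25100 to 32300 without bFGF and 19300 to 24300 with it, and LUM and POSTN detected on 0 arrays. MIXL1, PAX6, GATA3 and KRT7 passed the filter only through conditions without bFGF, so that a difference was built into their selection. Their calls are no support for a difference and are not counted here, although these genes enter the sums. The part of these shifts in the lower levels of NODAL, FST, LEFTY1, LEFTY2 and GDF3 was not tested.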

How the data were processed

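The authors deposited, for each of 8 arrays, the intensity of every probe before normalization with its detection p-value, and a table of intensity after their background subtraction and normalization. Per the labels the values came from GenomeStudio (its version is not given), whereas the methods of the study name BeadStudio and a rank invariant normalization. The deposited raw intensity was the start here. With limma 3.58.1 in R 4.3.3 the background was corrected by normexp (neqc, offset 16, controls inferred from detection p), followed by quantile normalization and log2. A probe was kept if at least 1 condition had it detected (p under 0.01) on both arrays, which left 11668 of 24526, and the brightest probe stood for each of 9269 genes. One fit over all arrays with an intensity trend gave 7 comparisons, Benjamini-Hochberg adjusted over all genes at a threshold of 0.05, with 4 residual and 5.69 prior degrees of freedom. Single members were also tested by two-sided exact permutation of 8 arrays, while 2 against 2 cannot go below p = 0.333. The number of arrays limits the precision. The fit was tested on simulated data.

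Named genes are all members, any gene of the pathway and marker lists, and the 3 most alike genes per member. Members and lists were chosen with earlier results of these data known. Symbols came from the platform annotation, updated to GRCh38.p14 gene names, and promoter sequences from RefSeq. Alternatives were the authors' table with a floor of 16, no background correction, median scaling, other filters, the mean of probes, no trend, a replicate block, a fit of only the arrays compared, each array left out and the methods' t-test. The fit of all kept probes was added after seeing the data.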

Additional observations from a re-analysis of the deposited data

How the results depend on the processing

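NODAL and FST kept their direction with bFGF and their call in 17 of 17 alternatives over 4 arrays against 4, and in 17 of 18 for each pairwise comparison that called them, the exception being the methods' t-test. That test, which estimates the spread of each gene from 4 arrays alone, called 0 members against 3 in the fit of all arrays for +bFGF against −bFGF (2 of all genes against 1417), 0 against 3 for +IL-11+bFGF against +IL-11 (0 of all genes against 1048) and 0 against 2 for +IL-11 against +bFGF (0 of all genes against 1224). LEFTY2 over 4 against 4 also lost its call under it (adjusted p = 0.0824), and LEFTY2 in +IL-11+bFGF against +IL-11 without the intensity trend (0.0547). GDF3 in +IL-11+bFGF against +IL-11 passed with the authors' table (-0.53, adjusted p = 0.0466) and did not with only the arrays compared (-0.50, 0.0575). In +IL-11 against +bFGF, 4 members were called with the authors' table and 4 with only the arrays compared. Leaving out single arrays gave 604 to 1294 genes called for +bFGF against −bFGF (604 without +bFGF replicate 2, 623 without +bFGF replicate 1, 714 without −bFGF replicate 2), 400 to 1123 for +IL-11+bFGF against +IL-11 (400 without +IL-11+bFGF replicate 1, 448 and 416 without +IL-11 replicates 1 and 2), 434 to 1289 for +IL-11 against +bFGF (434 and 573 without +bFGF replicates 1 and 2, 595 and 472 without +IL-11 replicates 1 and 2) and 0 to 9 for +IL-11 against −bFGF (9 without −bFGF replicate 1). These fits have fewer arrays. Differences near 0 changed sign. In +IL-11 against −bFGF, GDF3 was -0.00541 with median scaling and FST 0.0331 with the mean of its probes and 0.139 on its second probe, and leaving out arrays gave GDF3 -0.145 to 0.18. In +IL-11+bFGF against +bFGF, leaving out arrays gave FST -0.205 to 0.224, GDF3 -0.0878 to 0.0383, LEFTY1 -0.35 to 0.33 and LEFTY2 -0.642 to 0.022, and for the interaction FST -0.132 to 0.297, GDF3 -0.205 to 0.12 and LEFTY1 -0.19 to 0.489. None of these was called in the fit of all arrays, and the cause was not tested.

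With 2 arrays per condition the replicate numbers were not taken to pair the arrays. With the replicate number as a block, 5 members were called over 4 against 4, 3 for +bFGF against −bFGF, 4 for +IL-11+bFGF against +IL-11 (GDF3 added, adjusted p = 0.0446) and 3 for +IL-11 against +bFGF (GDF3 added, 0.0495), and it changed no other member's call. The correlation of replicate gaps between conditions was -0.06 to 0.19 over genes. INHBA, TDGF1 and CER1 lie at or near the signal of the negative controls, so their readings give no level or fold.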
